A study of Mus musculus with 6 samples.

Results

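The genes described here encode the histone H3 lysine 36 (H3K36) methyltransferases Setd2, Nsd1, Whsc1 (also called Nsd2) and Ash1l, together with Smyd2 and Setd3, which were named H3K36 methyltransferases in early work. They were taken by gene symbol from the count tables, and each of the 6 symbols matched 1 of the 46072 genes. The libraries came from mouse embryos at the 4-cell stage, 3 labelled control and 3 labelled siRNA for SON. Son encodes a nuclear speckle protein that acts in pre-mRNA splicing, and the siRNA was microinjected into zygotes to lower it. The labels name neither the strain, the control injection, the siRNA sequence nor the embryos per library, and leave unsaid whether litters differed. The p-values therefore measure the spread between these libraries, which may be technical. A library holds whole embryos, so fewer cells with a transcript and less transcript per cell cannot be told apart.

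H3K36 methylation is laid down in transcribed chromatin by enzymes with distinct roles. SETD2 travels with elongating RNA polymerase II and makes the trimethyl mark on gene bodies, while NSD1, NSD2 (the product of Whsc1) and ASH1L make the mono- and dimethyl marks that cover wider regions. In the oocyte the SETD2 mark is known to guide DNA methylation before fertilization. SMYD2 also methylates p53 and other proteins, and the best established substrate of SETD3 is a histidine of actin.

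The 6 members lie on 6 chromosomes, and 3 of them have an entry in the RefSeq promoter table (GRCm38.p6). These were Setd2, Setd3 and Smyd2, which include the most abundant and the least abundant member. The stretches shown lie upstream of the outermost RefSeq start of Setd2 (chr9:110532347-110532499, plus strand) and Setd3 (chr12:108179346-108179534, minus strand), written 5′ to 3′ with each CG dinucleotide in capitals, to show that Setd2 and Setd3, at very different levels, share a CG-rich upstream region.
Setd2: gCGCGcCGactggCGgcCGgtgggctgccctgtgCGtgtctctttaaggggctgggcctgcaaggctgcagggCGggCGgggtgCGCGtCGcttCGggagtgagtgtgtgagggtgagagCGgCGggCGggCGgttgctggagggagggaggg
Setd3: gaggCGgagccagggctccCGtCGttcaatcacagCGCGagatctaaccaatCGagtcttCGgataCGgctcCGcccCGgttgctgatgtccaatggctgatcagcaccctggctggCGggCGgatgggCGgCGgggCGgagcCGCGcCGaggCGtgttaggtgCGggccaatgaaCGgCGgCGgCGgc
In the full windows of 300 bases around the start site, CG occurred 38 times for Setd2, 40 times for Setd3 and 43 times for Smyd2, against a median of 7 over 32851 promoter windows. For Smyd2 only 46 bases of the window lie upstream of its outermost start, with 2 CG in them, and they are not shown. The letters TATAAA, on either strand, were in none of the 3 windows and in 13.6% of all windows. GGGCGG was in all 3 windows and in 35.7% of all, and CCAAT was in the Setd3 window only and in 37.4% of all; the reverse complement ATTGG ends in letters with which GGGCGG begins, so those matches can overlap. A match is a description of these windows and not a bound site.

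Library totals ran from 104634855 to 118865650 estimated counts, and how many of these units 1 read pair gives is not known. Controls 1 to 3 had 19552, 20411 and 19102 genes above 0 counts, and siRNA libraries 1 to 3 had more, 21101, 21337 and 20996. Mitochondrial genes held 9.79% to 16% of counts in controls and 13.2% to 17.5% after siRNA. The part of these differences in the results was not tested. Levels are given as CPM, the usual depth-scaled count, with TMM factors applied to the library totals. Son stood at 249, 322 and 332 CPM in controls and at 41, 28 and 25.1 CPM in siRNA libraries, and its log2 fold change was -3.26 (edgeR adjusted p = 0.00991). Without siRNA library 1, 2 or 3 that adjusted p was 0.0648, 0.0709 or 0.136. TMM factors were 0.81 to 1.05 in controls and 1.02 to 1.16 after siRNA. Over the 6079 genes with a mean of 10 CPM or more, spread was larger among controls. Their median per-gene SD was 0.424 (log2 CPM) among controls against 0.216 among siRNA libraries. All 10 embryo and oocyte markers were detected in all libraries, with Pou5f1 at 0.755 to 5.75 CPM. Of 10 cumulus cell markers 5, Fshr, Inha, Inhba, Foxl2 and Lum, were at 0 everywhere; the summed list was 6.53 to 18.1 CPM in controls and 19.7 to 27.6 CPM after siRNA, nearly all of it Amhr2. The sperm markers summed to at most 1.14 CPM with Tnp2 and Odf1 at 0, and the blood markers to 6.03 to 12.1 CPM in controls and 9.75 to 10.97 CPM after siRNA with Hbb-bs and Ptprc at 0. Nearly all of the blood sum was Hba-a1, which overlapped between groups, and Hba-a2. The Hba-a2 level was higher in every siRNA library, at 1.72 to 2.36 CPM in controls and 3.42 to 3.86 CPM after siRNA (edgeR adjusted p = 0.398). The part of such cells in the results was not tested.

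Whsc1 and Ash1l were higher in every Son siRNA library than in any control, Setd2 was lower on average with overlap, and Nsd1, Setd3 and Smyd2 had overlapping groups. The 6 genes did not share a direction. By edgeR's quasi-likelihood test 0 of the 6 members passed an adjusted p of 0.05 over the 17788 genes tested, where 0.989% of all genes did (0.0899% higher and 0.899% lower). At an unadjusted p under 0.05 there were 3, Whsc1 and Ash1l higher and Setd2 lower, against 5.88% of all genes higher, 8.86% lower and 14.7% in either direction. Groups without overlap, which Whsc1 and Ash1l had, were found for 23.7% of all genes, 12.1% higher and 11.6% lower. DESeq2's Wald test and limma-voom with group weights each called 1 member, Whsc1, as higher; DESeq2 called 2.28% of all genes higher and 4.63% lower, and limma-voom 0.242% and 1.86%. Over the 6 members the median log2 fold change was 0.04, against 0.02 over all genes tested. Embryo and oocyte markers differed between the groups in both directions. Their summed level, carried mostly by Dppa2 and Dppa4, was 2716 to 4260 CPM in controls and 1714 to 1997 CPM after siRNA, and 1 of its 10 genes, Dppa2, fell (log2 -1.45, edgeR adjusted p = 0.0378). The oocyte transcripts Zp3 (39.4 to 62 and 67.8 to 87.8 CPM), Gdf9 (2.23 to 6.52 and 6.55 to 12.2 CPM) and Oosp1 (12.1 to 43.8 and 74.3 to 138 CPM) were, like Whsc1 and Ash1l, higher in every siRNA library, with edgeR adjusted p-values of 0.0915 to 0.304. Oosp1 was called higher by DESeq2 (adjusted p = 0.000675) and limma-voom (adjusted p = 0.0263), and Zp3 and Gdf9 by neither. Besides Dppa2, the genes Pou5f1 (1.88 to 5.75 and 0.755 to 1.37 CPM), Dppa4 (729 to 923 and 557 to 675 CPM) and Tead4 (22.3 to 39.2 and 14.4 to 14.6 CPM) were lower in every siRNA library, with edgeR adjusted p-values of 0.151 to 0.381. DESeq2 called Pou5f1 and Tead4, and limma-voom called neither of them (adjusted p = 0.149 and 0.117). Bmp15, Obox5 and Zfp42 overlapped between groups. The part of these transcripts in the results on the methyltransferases was not tested.

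**Figure D1:**
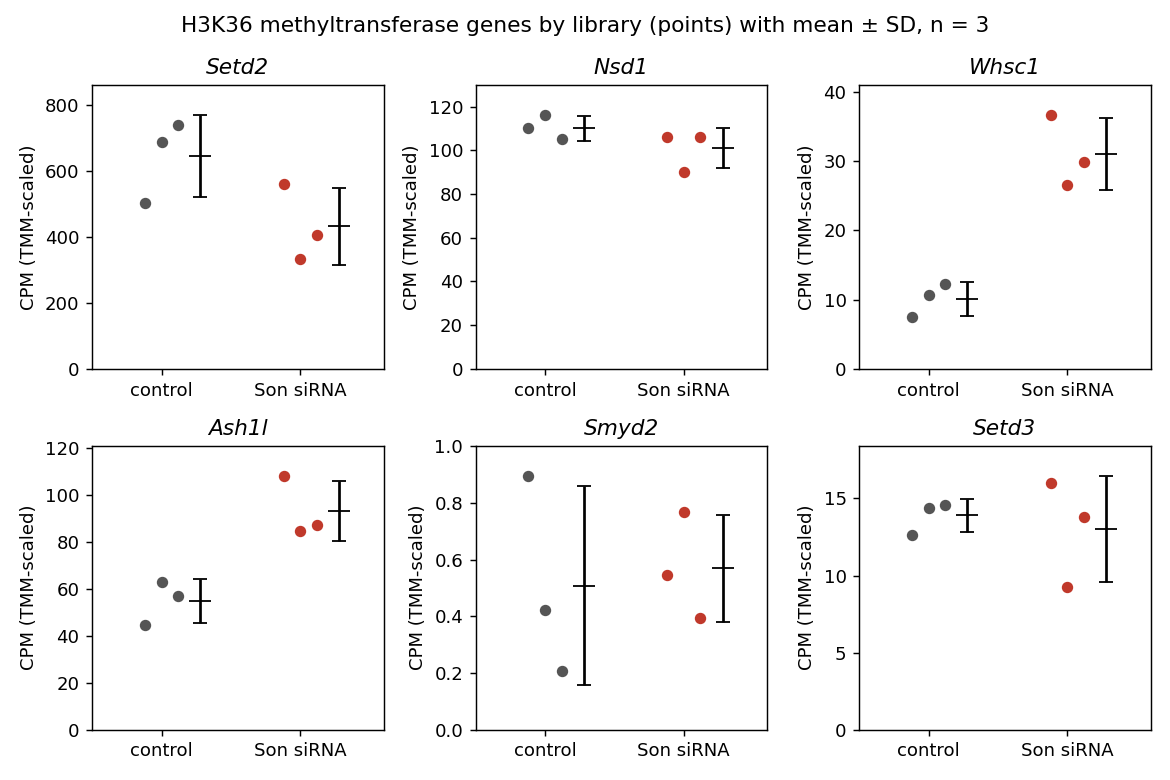
Level of each of the 6 genes in CPM (vertical axis, linear and starting at 0) in 3 control and 3 Son siRNA libraries; points are libraries and the bars beside them are mean ± SD. Whsc1 and Ash1l show no overlap between groups, and the other 4 genes do.

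Whsc1 had 714, 1201 and 1179 counts in controls 1 to 3, which is 7.43, 10.6 and 12.2 CPM. After Son siRNA it had 4438, 3103 and 3959 counts, or 36.6, 26.5 and 29.9 CPM. The lowest siRNA library was well above the highest control. Its product NSD2 makes dimethyl H3K36, and the human gene lies in the region deleted in Wolf-Hirschhorn syndrome. The ratio of the group means was 3.08, with a log2 fold change of 1.62 (SE 0.307, 95% interval 0.93 to 2.32). The edgeR adjusted p was 0.0509, just outside the threshold: Whsc1 ranked 177 by p and the 176 genes before it were called. DESeq2 gave an adjusted p of 2.83e-05 and limma-voom 0.0296. The exact two-sided permutation p was 0.1 for n = 3 against 3, the smallest this design allows. Whsc1 (ENSMUSG00000057406) lies on chromosome 5 from 33820725 to 33897975 on the plus strand of GRCm38, with 15 annotated transcripts; 0.357% of its exonic bases overlap Nelfa, and none of the stretches of 100 bases of its longest transcript occur in other genes.

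Ash1l, the mammalian counterpart of a Trithorax-group activator in the fly, had 44.7, 62.9 and 56.9 CPM in the controls. After Son siRNA it had 108, 84.5 and 87 CPM. Each siRNA library was above each control. The means were 54.8 ± 9.28 and 93.1 ± 12.8 CPM (SD, n = 3 each), with a log2 fold change of 0.76 (SE 0.236, 95% interval 0.23 to 1.3, edgeR adjusted p = 0.172). DESeq2 gave an adjusted p of 0.0508 and limma-voom 0.152. Ash1l (ENSMUSG00000028053) lies on chromosome 3 from 88950622 to 89079375, and 2.37% of its exonic bases overlap Dap3.

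Setd2, whose product adds the last methyl group of trimethyl H3K36, was by far the most abundant member. Controls 1 to 3 stood at 504, 687 and 740 CPM and siRNA libraries 1 to 3 at 560, 332 and 405 CPM. Groups overlapped, because siRNA library 1 was above control 1, while siRNA libraries 2 and 3 were below all controls. Means were 644 ± 124 and 432 ± 116 CPM (SD, n = 3 each). The log2 fold change was -0.57 (SE 0.253, 95% interval -1.15 to 0), with an edgeR adjusted p of 0.338. Its unadjusted edgeR p was 0.0497, just under 0.05. That p was 0.0704 with upper-quartile scaling, 0.0531 with no filter, 0.358 with total counts and 0.092 with a replicate block. Without control 2, control 3, siRNA library 2 or siRNA library 3 it was 0.0943 to 0.167, and it stayed under 0.05 in the other alternatives. Without siRNA library 1 the log2 fold change was -0.80 and without siRNA library 2 it was -0.42, neither past the threshold (edgeR adjusted p = 0.423 and 0.602). With total counts in place of TMM, which moved the median of all genes by 0.29, the Setd2 log2 fold change was -0.27. Setd2 (ENSMUSG00000044791) lies on chromosome 9 from 110532597 to 110618633 and shares no exonic base with another annotated gene.

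Nsd1, the paralog of Whsc1 linked to Sotos syndrome in humans, stood at almost 1 level. Its values were 110, 116 and 105 CPM in controls, and 106, 89.9 and 106 CPM after siRNA. In siRNA libraries 1 and 3 the level lay within the control range, and in siRNA library 2 below it. The SD of log2 CPM was 0.0747 in controls, the lowest of the 6 members. With a log2 fold change of -0.13, the 95% interval of -0.58 to 0.32 contains 0 (edgeR adjusted p = 0.835). Nsd1 (ENSMUSG00000021488) spans chromosome 13 from 55209782 to 55318325 and overlaps no other annotated exon.

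Setd3 and Smyd2, the members whose main substrates lie outside H3K36, did not separate the groups either. Setd3 had 12.6, 14.4 and 14.6 CPM in controls and 16, 9.28 and 13.8 CPM after siRNA. Its siRNA libraries lay on both sides of the controls (log2 fold change -0.09, 95% interval -0.80 to 0.62, edgeR adjusted p = 0.942). Pseudogenes Gm14026 and Gm7114 share 8.73% of the 100-base stretches of the Setd3 transcript (ENSMUSG00000056770, chromosome 12, 108106431 to 108179314). Smyd2 had 86, 48 and 20 counts in controls and 66, 90 and 52 counts after siRNA, which is 0.208 to 0.895 CPM in all. Smyd2 had the widest spread of the members among controls, with an SD of log2 CPM of 1.01. Its log2 fold change was 0.16 with a 95% interval of -1.87 to 2.19, and 30% of its exonic bases overlap the antisense gene Gm37422 (Smyd2, ENSMUSG00000026603, chromosome 1, 189880492 to 189922363). Smart-Seq2 reads carry no strand, so reads from overlapping exons cannot be told apart.

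**Figure D2:**
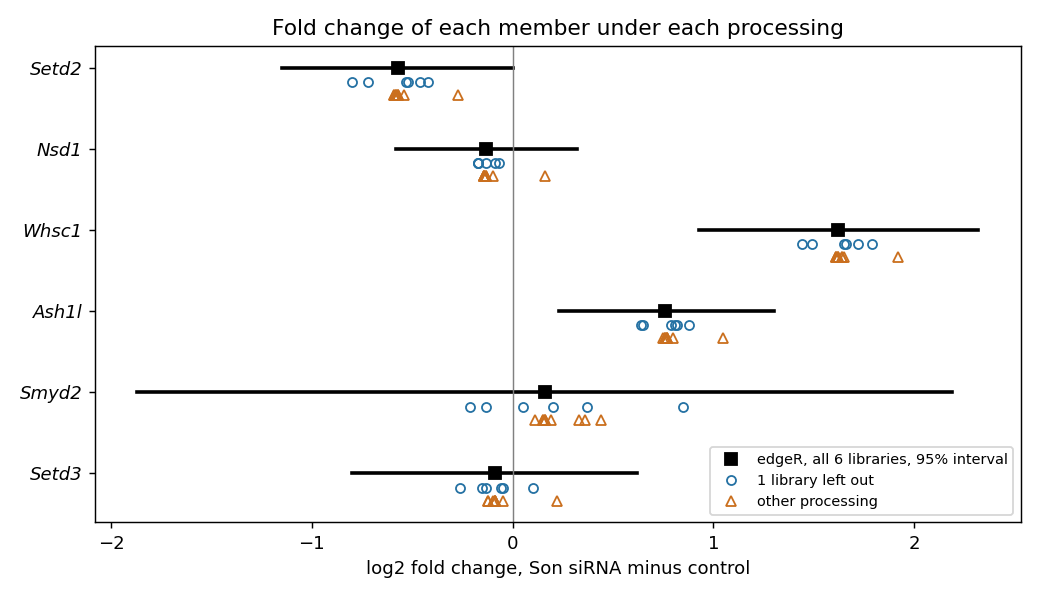
Log2 fold change of each gene, Son siRNA minus control (horizontal axis); squares and lines are edgeR estimates with 95% intervals, circles leave out 1 library each and triangles use another processing. Whsc1 lies between 1.44 and 1.92 and Ash1l between 0.64 and 1.05 in all alternatives, Setd2 between -0.80 and -0.27, and the other 3 genes have points on both sides of 0.

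Ratios between members within a library do not depend on the scaling between libraries, and they set the members against each other directly. Setd2 had 67.8, 65 and 60.5 times the counts of Whsc1 in the controls. After siRNA it had 15.3, 12.5 and 13.6 times. Spread within each group was small, with SDs of the log2 ratio of 0.0832 and 0.145. This ratio was 4.68-fold lower after siRNA (log2 difference -2.23), and leaving out any 1 library gave -2.30 to -2.16. The ratio of Setd2 to Ash1l went from 11.3, 10.9 and 13 in controls to 5.19, 3.93 and 4.66, or 2.56-fold lower, with -1.45 to -1.25 in log2 when 1 library was left out.

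Nsd1 against Whsc1 had count ratios of 14.8, 11 and 8.55 in controls and 2.9, 3.39 and 3.53 after siRNA, a log2 difference of -1.77. Nsd1 exceeded Ash1l in the controls, at 2.46, 1.85 and 1.84 times its counts, and stood near equal after siRNA, at 0.985, 1.06 and 1.21 times. Whsc1 itself was higher relative to Ash1l, with a ratio of 0.166 to 0.215 in controls and 0.314 to 0.344 after siRNA. Whsc1 thus had the larger of the 2 increases in these libraries. The ratio of Nsd1 to Setd3 overlapped between the groups, at 7.19 to 8.73 and 6.62 to 9.69. Of the 15 pairs, 8 did not overlap between groups, and all of these but Setd2 to Setd3 contain Whsc1 or Ash1l, whose own levels did not overlap either. Single genes without overlap made up 23.7% of all genes tested, and the share among pairs of other genes was not computed. Each of those 8 had an exact two-sided permutation p of 0.1, the smallest possible over 20 assignments, and an adjusted p of 0.188 over the 15 pairs, so none can pass 0.05 in this design.

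**Figure D3:**
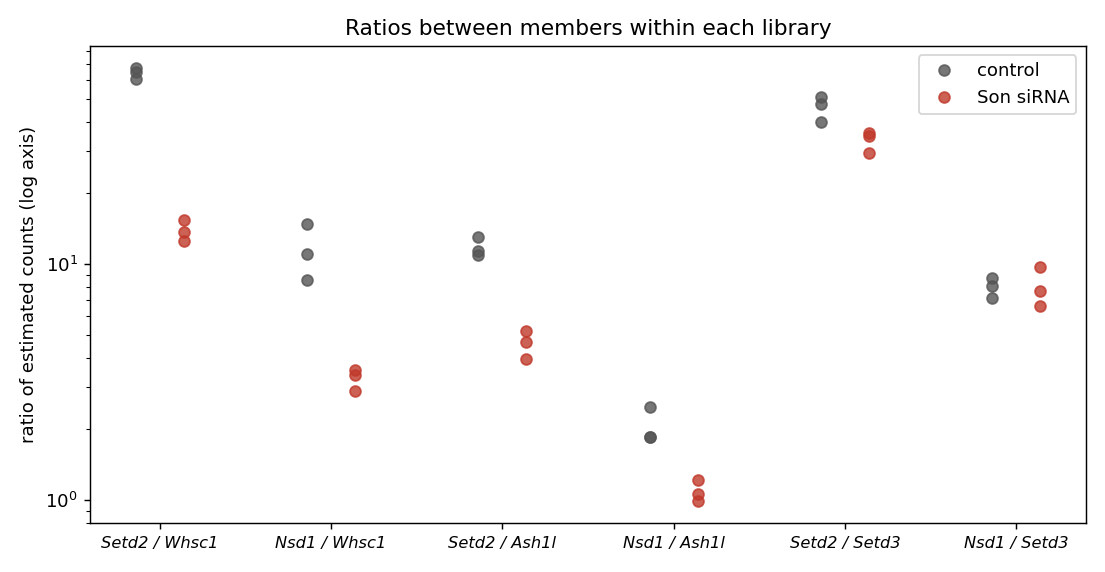
Ratio of the estimated counts of 2 genes within each library (vertical log axis) for 6 of the 15 pairs, in controls and Son siRNA libraries, 3 points each. The ratios of Setd2 or Nsd1 to Whsc1 and to Ash1l, and of Setd2 to Setd3, are lower in every siRNA library, and the ratio of Nsd1 to Setd3 overlaps.

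Levels were compared between genes per length, as CPM per kilobase of merged exons. In controls the order of mean levels was Setd2 (59.9 ± 11.5), Nsd1 (6.31 ± 0.327), Ash1l (3.69 ± 0.625), Setd3 (2.3 ± 0.18), Whsc1 (0.6 ± 0.145) and Smyd2 (0.187 ± 0.129 CPM per kilobase, SD, n = 3). No neighbours in this order overlapped between libraries. With the longest transcript as length, Ash1l (3.84 to 5.4) and Setd3 (4.12 to 4.77 CPM per kilobase) did overlap in controls. After siRNA it was Setd2 (40.2 ± 10.8), Ash1l (6.27 ± 0.863), Nsd1 (5.75 ± 0.527), Setd3 (2.16 ± 0.572), Whsc1 (1.85 ± 0.307) and Smyd2 (0.209 ± 0.0696). Here the ranges of Ash1l and Nsd1 overlapped, at 5.69 to 7.27 and 5.14 to 6.07, as did those of Setd3 and Whsc1, at 1.54 to 2.66 and 1.58 to 2.18. Setd2 made up 79.4% to 84.1% of the summed level of the 6 genes in controls and 68.4% to 73.9% after siRNA. Ash1l went from 4.68% to 5.44% of that sum to 10.3% to 12.6%. Shares of a sum depend on each other, so these differences are not separate results.

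Within the NSD family, which comprises Nsd1, Whsc1 and Whsc1l1 (Nsd3), Whsc1 provided 5.4%, 7.06% and 7.63% of the summed level per kilobase in controls. Its share was 21%, 18.6% and 18.6% after siRNA. This is a difference of 12.7 percentage points between the means of 6.7% ± 1.16 and 19.4% ± 1.42 (SD), with an exact permutation p of 0.1 for n = 3 against 3. Nsd1 took 62.7% to 76.9% of the sum in controls and 58.6% to 63% after siRNA, and Whsc1l1 took 17.7% to 29.6% and 18.4% to 20.9%, both with overlap. With the longest transcript as length the Whsc1 shares were 8% to 10.9% and 25.5% to 28.6%. The Nsd1 shares no longer overlapped on that length, at 56.9% to 72.1% in controls and 50.5% to 55.1% after siRNA (exact permutation p = 0.1 for n = 3 against 3). Shares of a sum depend on each other, so a lower Nsd1 share does not show a lower Nsd1 level. The log2 fold change of Nsd1 itself was -0.13 (edgeR adjusted p = 0.835).

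**Figure D4:**
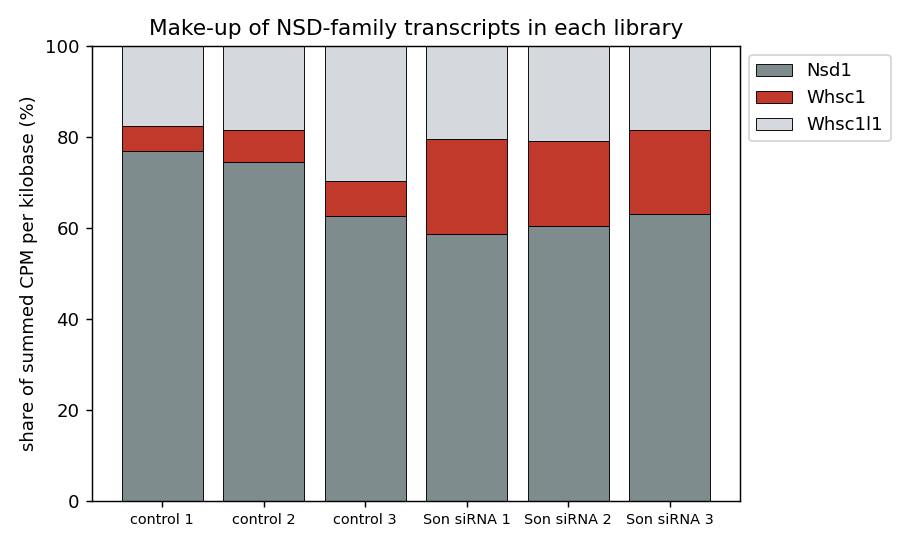
Share of Nsd1, Whsc1 and Whsc1l1 in their summed CPM per kilobase (vertical axis, percent) in each of the 6 libraries. The Whsc1 segment is 5.4% to 7.63% in controls and 18.6% to 21% after Son siRNA.

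The genes whose pattern over the 6 libraries was most like each member were taken from about 5481 genes at 10 CPM or more, by Pearson correlation of log2 CPM. For Whsc1 they were Zhx1 (r = 0.997), a zinc finger and homeobox gene, Cyb5b (0.99), which encodes the outer mitochondrial membrane cytochrome b5, and Tfdp2 (0.988), which encodes a dimerization partner of E2F factors. Zhx1 had mean levels of 4.28 CPM in controls and 20.7 CPM after siRNA, Cyb5b 23.3 and 63.2 CPM, and Tfdp2 21.6 and 38.9 CPM. Likeness to Whsc1 or Ash1l fixes the direction of such differences, and Zhx1 reached the minimum of 10 CPM only through the siRNA libraries, so they are descriptions with no test. For Ash1l the nearest were Znrf3 (r = 0.995), a ubiquitin ligase that restrains Wnt receptors, Dcp2 (0.993), the mRNA decapping enzyme, and Rabgap1 (0.992). Znrf3 averaged 30.8 CPM over the controls and 114 CPM over the siRNA libraries. Setd2 was followed by Cnot1 (0.984), the scaffold of the CCR4-NOT deadenylase, Kmt2c (0.982), an H3K4 methyltransferase, and Hspa9 (0.98). Nsd1 was nearest to Tbccd1, Prpf8 and Zdhhc5 (0.979 to 0.989), Setd3 to Diap3, Cdc23 and Taf1 (0.933 to 0.963), and Smyd2 to Ppa2, Cops3 and Pam16 (0.973 to 0.991). The correlations describe 6 libraries that share a group difference.

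Among genes listed beside the members, Supt5, the gene of an elongation factor that binds RNA polymerase II, fell after Son siRNA. It was the 1 gene past the threshold in 5 lists. Supt5 had 72.9, 84.2 and 56.4 CPM in controls and 30.5, 21.7 and 26.2 CPM after siRNA, without overlap. The log2 fold change was -1.44 (SE 0.264, edgeR adjusted p = 0.0462). Its call was lost without any 1 library, with adjusted p-values of 0.0547 to 0.293 and log2 fold changes of -1.58 to -1.3, and 7.51% of its exonic bases overlap the antisense gene Gm44709. Of 19 tested genes on the list of elongation factors and SETD2 partners, 1 fell and 0 rose by edgeR, with a median log2 fold change of 0.05. Of all genes, 0.899% fell. DESeq2 called Supt5 and Paf1 lower and Ccnt2 higher, where it called 4.63% of all genes lower and 2.28% higher. Paf1, a subunit of the PAF1 elongation complex, had 54.3, 135 and 132 CPM in controls and 33.7, 35.2 and 38.1 CPM in siRNA libraries. Its log2 difference was -1.59 (edgeR adjusted p = 0.0749). That adjusted p was 0.0293 without control 1, its lowest control, and 0.0962 to 0.347 when any other library was left out. Ccnt2, a cyclin of the elongation kinase P-TEFb, had 54.3, 55.8 and 38.1 CPM in controls and 93.7, 87.3 and 111 CPM in siRNA libraries, a log2 difference of 0.98 (adjusted p = 0.104). Rtf1 had log2 0.67 (adjusted p = 0.26). The elongation list thus held genes on both sides, as did the writers.

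Readers of H3K36 methylation had 0 of 21 tested members past the threshold by edgeR, 1 higher and 2 lower at an unadjusted p under 0.05 (5.88% and 8.86% of all genes), and a median of -0.04. Psip1, whose product LEDGF binds trimethyl H3K36 through a PWWP domain, had 71.9, 116 and 148 CPM in controls and 189, 185 and 174 CPM in siRNA libraries, a log2 difference of 0.70 (edgeR adjusted p = 0.273). Mtf2 encodes a Tudor-domain partner of Polycomb repressive complex 2. It had 1810, 996 and 2560 CPM in controls and 669, 574 and 681 CPM in siRNA libraries. The log2 difference was -1.48 (edgeR adjusted p = 0.0714). That adjusted p was 0.0176 without control 2, and 0.114 to 0.334 when any other library was left out. Mtf2 was called lower by DESeq2 and limma-voom. Dnmt3b, a de novo DNA methyltransferase with a PWWP domain, had 3.40 to 7.52 CPM and 1.61 to 3.78 CPM (log2 -1.12, adjusted p = 0.326), and Msh6, the mismatch repair gene, had log2 -0.40 (adjusted p = 0.523). Of the 100-base stretches of Dnmt3b, 5.71% also occur in its paralog Dnmt3c.

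H3K36 demethylases had 0 of 7 tested members past the threshold by edgeR, 1 lower at an unadjusted p under 0.05 (8.86% of all genes) and a median of -0.14. Kdm2b, which removes dimethyl H3K36 and recruits a variant Polycomb repressive complex 1 to CpG islands, had 90.4, 93.5 and 76.2 CPM in controls. After siRNA it had 55, 40.8 and 41.4 CPM, below all controls (log2 -0.92, edgeR adjusted p = 0.108). DESeq2 called Kdm2b lower (adjusted p = 0.00755), with 4.63% of all genes called lower, and limma-voom did not call it (adjusted p = 0.0779). In sequence 21.1% of the Kdm2b 100-base stretches also occur in Gm12397, Gm44574 or Rnf34. Kdm4c, a demethylase of H3K9 and H3K36, had log2 -0.43, Kdm2a 0.19 and Kdm4b -0.56, with edgeR adjusted p-values of 0.467 to 0.847.

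Other writers and relatives of the members had 0 genes past the threshold by edgeR, DESeq2 or limma-voom. Of 4 other genes reported to methylate H3K36, 0 had an unadjusted p under 0.05. Whsc1l1 had 23.9, 27.2 and 46.7 CPM in controls and 34.9, 29.3 and 29.1 CPM after siRNA (log2 -0.07), Setd5 had log2 0.40, Setmar 0.62 and the meiotic gene Prdm9 -0.24. Of 6 SMYD and SETD relatives, Smyd5 had 26.9, 51.3 and 27.6 CPM in controls and 19, 17.3 and 19.5 CPM in siRNA libraries, a log2 difference of -0.92 (edgeR adjusted p = 0.221), and was the 1 gene lower at an unadjusted p under 0.05 (8.86% of all genes). Without control 2, its highest library, Smyd5 was at -0.55 with an unadjusted edgeR p of 0.0573; without siRNA library 1 or 2 that p was 0.0527 or 0.0549. Smyd3 had log2 0.28, Smyd4 1.67 and Setd6 0.90, with edgeR adjusted p-values of 0.377 to 0.673, and Setd6 went to 1.89 without control 1 and 0.55 without control 3. Smyd4 had few counts, 64, 97 and 12 in controls and 136, 189 and 333 in siRNA libraries. Its log2 fold change was 1.2 without control 3 and 2.15 without control 2.

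**Figure D5:**
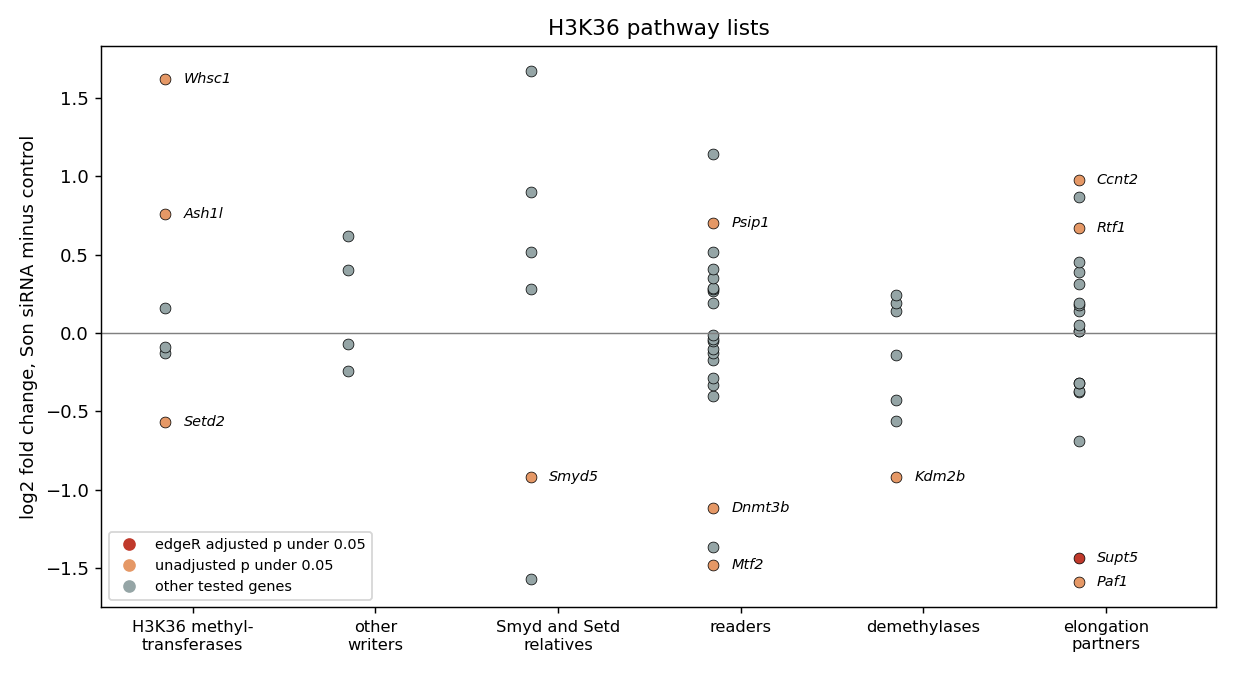
Log2 fold change, Son siRNA minus control (vertical axis), of every tested gene in the 6 H3K36 methyltransferases and 5 pathway lists; colour gives the edgeR test and names mark genes at an unadjusted p under 0.05. Supt5 is the 1 gene past the adjusted threshold, and each of the larger lists has genes above and below 0.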

How the data were processed

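RNA of 4-cell mouse embryos was sequenced after direct lysis and Smart-Seq2, per the labels' protocols. HISAT2 2.0.5, StringTie 1.3.3b and GRCm38 were used per the submitters' processing notes; neither annotation release, counting script nor read length is stated there. For each library the authors deposited 1 table of whole-number estimated counts, not normalized. How many units 1 read pair gives is not known; values from 1 to 40 were multiples of 4 in 26.4% to 32.4% of genes, against 25% by chance, and counts divided by 4 serve only as an alternative scale. Groups and replicate numbers came from the sample titles. Gene positions are from GENCODE vM21 (GRCm38), which matched 45223 of the 46072 genes.

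The test was edgeR 4.0.16 in R 4.3.3 (filterByExpr, TMM, glmQLFit, glmQLFTest, Son siRNA minus control, Benjamini-Hochberg over 17788 genes). SEs are the fold change divided by the root of F, and intervals use the test's degrees of freedom. DESeq2 1.42.0 and limma 3.58.1 were alternatives, with other scalings and filters, a block, counts divided by 4 and leaving out each library. Members and lists were chosen with earlier results of these data known. Named genes were the 6 members, Son, genes past the threshold and up to 4 with the smallest p per list, and the 3 most alike per member. Intervals cover the spread between libraries only.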

Additional observations from a re-analysis of the deposited data

How the results depend on the processing

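Whsc1, Ash1l and Setd2 kept their direction under all 16 alternatives. Whsc1 passed the threshold under 4 of them, with a log2 fold change of 1.62 under a stricter filter (50 counts in 3 libraries), 1.61 by DESeq2, 1.64 by limma-voom and 1.62 with counts divided by 4; the number of members past the threshold was then 1 in each. Leaving out 1 library gave Whsc1 1.44 to 1.79 (edgeR adjusted p = 0.0572 to 0.315) and Ash1l 0.64 to 0.88. With total counts Nsd1 was at 0.16, Setd3 at 0.22, Prdm9 at 0.06 and Whsc1l1 at 0.26, signs opposite to those with TMM. With 1 library left out, Smyd2 ranged from -0.21 to 0.85, Setd3 from -0.26 to 0.10, Whsc1l1 from -0.25 to 0.28, Kdm2a from -0.02 to 0.31 and Kdm4b from -1.16 to 0.55. Specifically, signs changed without control 3 for Smyd2 (-0.21) and Whsc1l1 (0.28), without control 2 for Kdm4b (0.55), without siRNA library 1 for Kdm2a (-0.02), and without siRNA library 2 for Smyd2 (-0.13) and Setd3 (0.10). The log2 ratio of Nsd1 to Setd3 ranged from -0.16 to 0.11 (0.05, 0.11 and 0.01 without control 1, siRNA 1 and siRNA 3), Ash1l to Smyd2 from -0.23 to 0.97 and Smyd2 to Setd3 from -0.08 to 1.05 (-0.01 without siRNA library 2). The difference in the Smyd2 share of the 6 genes ranged from -0.0068 (without siRNA library 2) to 0.247 percentage points, and that of the Whsc1l1 share of the NSD genes from -4.15 to 1.8 (without control 3). The cause was not tested.

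The number of readers past the threshold was 1 with the stricter filter, DESeq2, limma-voom and counts divided by 4, and 0 to 1 with a library left out; that of demethylases was 1 by DESeq2. On the elongation list 0 genes passed with total counts, upper-quartile scaling, no filter or the replicate block. The number there was 3 by DESeq2, 2 by limma-voom, 2 with counts divided by 4, and 0 to 1 with a library left out. Over all genes DESeq2 called 2.28% higher and 4.63% lower, and limma-voom 0.242% and 1.86%. With counts divided by 4 edgeR called 330 of 14666 genes, and with the stricter filter 288 of 14124. With the longest transcript as length, control levels were 77.1 (Setd2), 8.63 (Nsd1), 4.71 (Ash1l), 4.53 (Setd3) and 1.29 (Whsc1) CPM per kilobase and siRNA levels 51.8, 7.86, 7.99, 4.27 and 3.98, with Smyd2 at 0.333 after siRNA. These follow from the shorter length used.

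With the replicate number as a block, 0 genes passed by edgeR against 176 without it (1997 had an unadjusted p under 0.05), and Whsc1 was at 1.64 in log2 (adjusted p = 0.179). Same-numbered libraries had correlations of their deviations from the group mean of -0.274, -0.332 and 0.0234 over 6079 genes. Deviations from a mean of 3 libraries depend on each other, so these values cannot tell whether same-numbered libraries share a source. Leaving out siRNA library 1, 2 or 3 likewise left 0 genes by edgeR, with 1786, 2348 and 1733 at an unadjusted p under 0.05. Of 17788 genes tested, DESeq2 called 1228 with all libraries, limma-voom 373 and total counts 42. Counts divided by 4 gave 330 of 14666 genes, the stricter filter 288 of 14124 and no filter 100 of 27088. Without control 1, 2 or 3 edgeR called 64 of 19050, 315 of 18975 and 87 of 19132 genes. Smyd2 had 20 to 90 counts per library, the fewest of the members, and whether depth limits it was not tested.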

Other observations

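Among the pathway lists, 2 genes were too low to be tested and are given as values, chosen after their values were seen. Kdm4d, a demethylase gene, was at 0 counts in the 3 controls and had 12, 8 and 190 counts in siRNA libraries 1 to 3, so siRNA library 3 held most of them. Phf19, a partner of Polycomb repressive complex 2, was at 0 in 5 libraries and had 19 counts in control 3.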
